A study of Mus musculus with 7 samples.

Results

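The genes described here are 35 genes of mitosis and of the G2/M phase of the cell cycle, from the cyclins that open mitosis to the proteins that divide the cell. They were chosen by name, with earlier results of these data known. All 35 were found among the 13587 genes listed in at least 1 of the 6 deposited tables. The cells were B16, a mouse melanoma line of C57BL/6 origin that the labels call clonal and stable, used under 5 passages, so every group is the same clone. Polyadenylated RNA was profiled by sequencing in 7 groups. In the 3 IFNγ groups, detached cells had been exposed to interferon gamma (IFNγ), a cytokine of T and natural killer cells, as a pulse of 5 h with the recombinant mouse protein at 10 nM, and RNA was taken at labelled times of 23.5, 48 and 91 h. In the 3 mock groups the cells had been held in medium alone, with RNA taken at the same times. All were washed 3 times and seeded at 35000 cells per well in duplicate, and the remaining group is labelled time 0 (T0). The labels do not say whether T0 cells had been through a pulse.

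Entry into mitosis is driven by cyclin B bound to the kinase Cdk1, and exit from it by the anaphase promoting complex, which marks cyclins and other proteins for destruction. The genes of this programme are transcribed late in each division cycle and are switched off together in cells that have stopped dividing. In mouse and human cells a repressor complex named DREAM and an activator that holds B-Myb and FoxM1 act on their promoters through the cell cycle genes homology region (CHR), and the factor NF-Y acts through nearby CCAAT boxes.

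Both elements were found in most of the promoters that could be read. RefSeq start sites (GRCm38.p6) gave 32 windows of 300 bases, from 250 bases before the start to 50 after it, for 29 of the 35 genes, while Aurkb, Ccna2, Cdc25c, Kif20a, Smc4 and Tpx2 had no entry. The letters TTTGAA, the CHR core, were found on either strand in 26 of the 32 windows, which is 81.2%, against 17.9% of all 32851 windows of the table. The letters CCAAT were found in 28 of the 32 windows, which is 87.5%, against 37.4% of all windows. Both were present in 24 windows, which is 75.0%, against 6.95% of all windows. No CHR match shared a base with a CCAAT match (0 of 33). The CHR matches lay at a median position of -18 from the start and the 65 CCAAT matches at a median of -78. Windows of Ect2, Prc1 and Bub3 overlap, so some sites are counted more than once. Counted by gene, the CHR core was found in 23 of 29 genes, against 20.2% of all 27025 genes. The CCAAT letters were found in 25 of 29, against 41.1%, and both in 21 of 29, against 7.97%. A match describes the letters only and does not show a bound factor.

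Windows of 4 genes show these elements, 3 of them drivers of mitosis (Plk1, Ccnb2 and Cdk1) and 1 the gene that fell least (Bub3). Capitals mark TTTGAA or its reverse complement TTCAAA, and CCAAT or its reverse complement ATTGG. Each is printed 5′ to 3′ on the strand of its gene: Plk1 on the plus strand at chr7:122159185-122159484, Ccnb2 on the minus strand at chr9:70421505-70421804, Cdk1 on the minus strand at chr10:69352863-69353162 and Bub3 on the plus strand at chr7:131560120-131560419.
Plk1: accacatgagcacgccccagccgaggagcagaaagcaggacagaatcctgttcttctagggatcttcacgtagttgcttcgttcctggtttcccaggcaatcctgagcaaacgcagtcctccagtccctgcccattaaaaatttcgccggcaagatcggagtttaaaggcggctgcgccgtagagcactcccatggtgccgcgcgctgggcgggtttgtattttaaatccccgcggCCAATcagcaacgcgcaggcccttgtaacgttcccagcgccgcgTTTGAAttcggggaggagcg
Ccnb2: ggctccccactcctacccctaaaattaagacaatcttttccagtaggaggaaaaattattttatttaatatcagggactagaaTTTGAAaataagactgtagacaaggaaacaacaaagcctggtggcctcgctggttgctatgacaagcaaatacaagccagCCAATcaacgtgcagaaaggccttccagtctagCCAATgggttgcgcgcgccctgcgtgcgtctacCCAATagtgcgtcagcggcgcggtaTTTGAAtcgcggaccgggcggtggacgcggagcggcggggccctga
Cdk1: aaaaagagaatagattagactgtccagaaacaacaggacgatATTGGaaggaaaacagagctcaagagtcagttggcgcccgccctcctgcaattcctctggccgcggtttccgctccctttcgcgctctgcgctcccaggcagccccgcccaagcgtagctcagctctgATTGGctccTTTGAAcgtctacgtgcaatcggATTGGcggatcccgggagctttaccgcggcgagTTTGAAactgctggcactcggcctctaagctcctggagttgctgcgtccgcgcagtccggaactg
Bub3: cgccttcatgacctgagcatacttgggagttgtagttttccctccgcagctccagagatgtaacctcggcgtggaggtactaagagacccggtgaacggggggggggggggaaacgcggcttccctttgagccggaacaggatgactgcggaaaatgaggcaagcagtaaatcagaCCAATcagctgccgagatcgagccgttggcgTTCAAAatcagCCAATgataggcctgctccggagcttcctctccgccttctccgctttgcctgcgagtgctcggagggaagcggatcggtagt
The printed Bub3 window holds the letters of both elements, as do those of Plk1, Ccnb2 and Cdk1, with its CHR core at position -43. A further Bub3 window, at chr7:131560244-131560543, holds the same CHR core at position -167. The 6 genes whose windows had no CHR match, Birc5, Bub1, Ccnb1, Cenpe, Nek2 and Nusap1, stood at 1.29% to 3.77% of T0 in the IFNγ group at 91 h and at 2.09% to 4.16% in the mock group. The 23 genes with a match ranged over 1.37% to 48.9% of T0 in the IFNγ group and over 1.54% to 47.0% in the mock group. The median in the IFNγ group was 2.09% with the match and 2.02% without it, and in the mock group 3.22% with it and 2.56% without it.

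Each deposited mean was found to be the mean of 2 libraries, and the reads of both could be worked out for all 35 genes in all 7 groups. Levels are given as scaled reads, that is reads divided by the size factor behind the authors' means, with the tables joined through T0 because each table was normalised separately. The 14 libraries held 12894823 to 24459251 reads in the genes solved. Nothing in the labels says whether the 2 libraries of a group came from separate wells, so every p-value here reflects the spread between libraries, which may be technical. That spread was wider in the IFNγ group at 48 h, where the SD of the log2 ratio between the 2 libraries was 0.419 over 4894 genes with a level of at least 1000, more than in each of the other 6 groups. There 122 of those genes were over 2-fold apart, against none in the other groups. Libraries are numbered by size factor, the larger first, and the numbers pair nothing between groups. All 7 melanocytic markers were listed, with Tyrp1 highest. Of other cell types, 1 of 5 T cell markers (Lck, 25.5 to 143), 1 of 5 myeloid markers (Cd68, 8.32 to 97.1), 1 of 4 endothelial markers (Vwf, 166 to 933), 4 of 5 fibroblast markers (summed level 262 to 490) and 0 of 3 keratinocyte markers were listed.

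The first question is how the mitotic programme ran over the 91 h in each arm. All 35 genes were lower at 91 h than at 23.5 h, in the IFNγ arm and in the mock arm alike, in limma fits over all genes with adjusted p under 0.05. Of all genes tested, 36.7% were lower in the IFNγ arm and 35.7% in the mock arm. The median log2 ratio of the 35 genes was -5.24 in the IFNγ arm, 37.7 times lower at 91 h, and -5.02 in the mock arm, 32.3 times lower. Over all genes tested the median was -0.01 in the IFNγ arm and 0.00 in the mock arm, and 60 of 12497 genes in the IFNγ arm and 64 of 12481 in the mock arm lay at or below the median of the 35. In bulk RNA, fewer dividing cells and less of these transcripts per cell cannot be told apart.

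**Figure D1:**
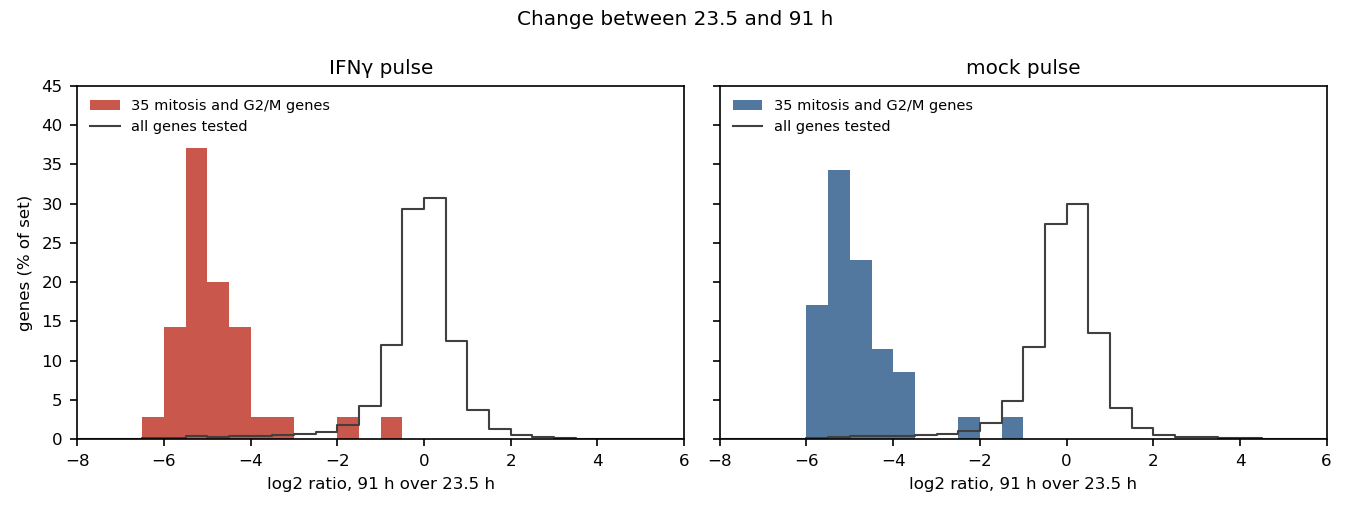
Share of genes (y axis, % of the set) by log2 ratio of the level at 91 h over 23.5 h (x axis, bins of 0.5) in the IFNγ arm (left) and the mock arm (right); filled bars are the 35 mitosis and G2/M genes and the line is all genes tested. The 35 genes sit far to the left of the peak of all genes, with medians of -5.24 in the IFNγ arm and -5.02 in the mock arm.

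The fall was not even over time. In the IFNγ arm the 35 genes had a median of 84.4% of T0 at 23.5 h, 59.1% at 48 h and 2.12% at 91 h. In the mock arm the medians were 97.0% at 23.5 h, 70.8% at 48 h and 2.74% at 91 h. At 91 h, 33 of 35 genes were under 10% of T0 in each arm, and 31 in the IFNγ arm and 27 in the mock arm were under 5%. Of all genes with a T0 level of at least 20, 1.32% were under 5% of T0 in the IFNγ arm and 1.10% in the mock arm. Both arms are set against the same T0 libraries, so these percentages share their denominator.

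**Figure D2:**
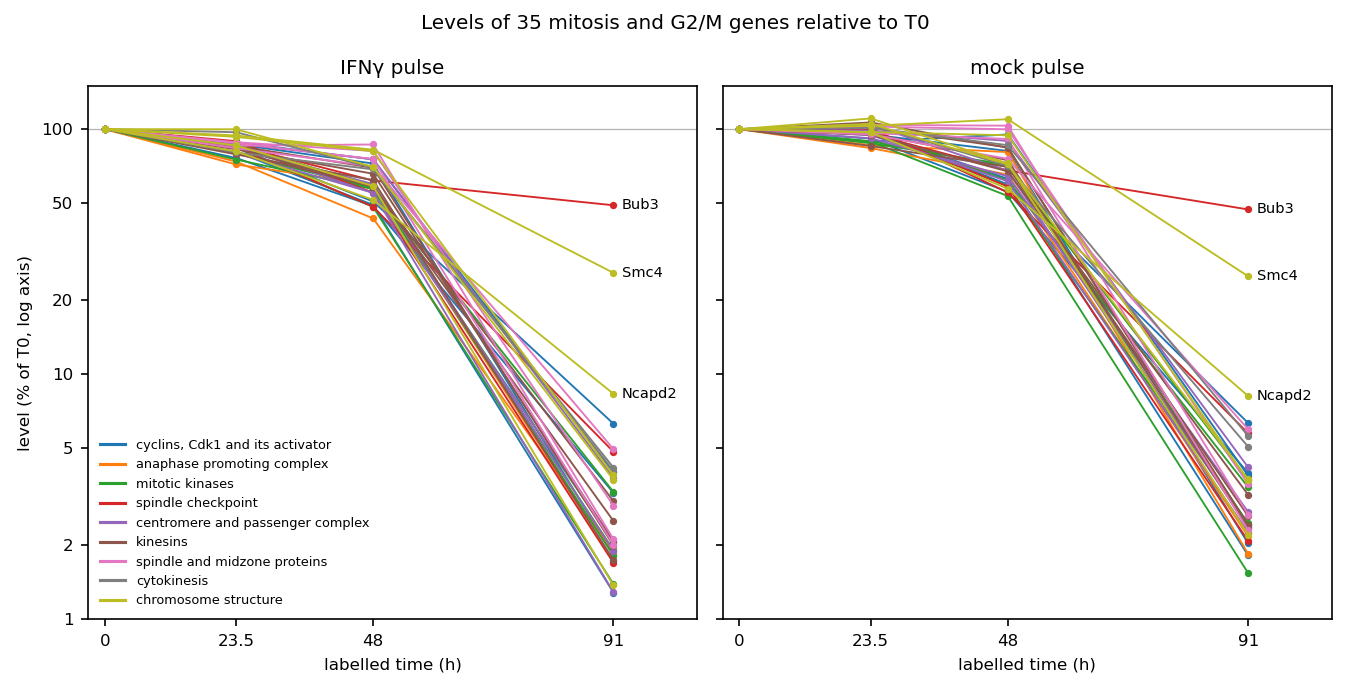
Level of each of the 35 genes as a percentage of its T0 mean (y axis, log scale) against labelled time in hours (x axis), in the IFNγ arm (left) and the mock arm (right); lines join the means of 2 libraries and colours mark the role. The steep part of each course lies between 48 and 91 h, after which all genes but Bub3 and Smc4 stand under 10% of T0.

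Among the cyclins and their kinase, the fall was steepest for Ccna2, the cyclin A of S phase and G2. It stood at 77.2 and 95.9 in the IFNγ libraries and 104 and 142 in the mock libraries at 91 h, against 6687 and 6809 at T0. Ccnb1, the main mitotic cyclin B, had 94.8 and 95.9 in the IFNγ libraries, 110.4 and 119 in the mock libraries and 2989 and 2834 at T0. Both genes ended within 1.28% to 3.95% of T0, and in both the IFNγ libraries at 91 h lay below the mock libraries. Cdk1 itself kept more of its transcript, with 362 and 339 in the IFNγ libraries and 363 and 343 in the mock libraries, against 5409 and 5769 at T0. That is 6.27% of T0 in the IFNγ arm and 6.31% in the mock arm, and the arms overlapped. Ccnb2, a second cyclin B, ended at 1.84% in the IFNγ arm and 2.04% in the mock arm, and Cdc25c, a phosphatase that activates Cdk1, at 3.97% in the IFNγ arm and 3.85% in the mock arm.

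Both genes that time the exit from mitosis fell. Cdc20, the activator of the anaphase promoting complex, ended at 1.89% of T0 in the IFNγ arm and 2.18% in the mock arm, and Ube2c, the ubiquitin-conjugating enzyme of that complex, at 1.73% in the IFNγ arm and 1.85% in the mock arm. Of the mitotic kinases, Plk1, which acts from mitotic entry to cytokinesis, had 64.0 and 52.8 in the IFNγ libraries and 67.7 and 61.8 in the mock libraries, against 4225 and 4180.4 at T0. Aurka, the kinase of centrosomes and spindle poles, had 87.1 and 90.9 in the IFNγ libraries and 102 and 96.9 in the mock libraries, against 2674 and 2716 at T0. Plk1 at 1.54% of T0 was the lowest of the 35 in the mock arm, where Aurka kept 3.68%. The IFNγ and mock libraries of 91 h overlapped for Plk1 and were apart for Aurka, lower after IFNγ. Aurkb, the kinase of the chromosomal passenger complex, Nek2, a kinase of centrosome separation, and Ttk, a kinase of the spindle checkpoint, ended between 1.81% and 2.05% in the IFNγ arm and between 2.45% and 3.46% in the mock arm.

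The spindle checkpoint holds back anaphase until chromosomes are attached, and its 3 genes here parted company. Bub1b, which encodes the checkpoint protein BubR1, had 151 and 181 in the IFNγ libraries and 215 and 179.8 in the mock libraries, against 3350.4 and 3537 at T0. Bub1, a kinetochore kinase, ended at 1.70% of T0 in the IFNγ arm and 2.09% in the mock arm. Bub3, the partner that brings Bub1 and BubR1 to kinetochores, had 2467 and 2383 in the IFNγ libraries and 2328 and 2335 in the mock libraries, against 4825 and 5094 at T0. Bub3 kept 48.9% of its T0 level in the IFNγ arm and 47.0% in the mock arm, while neither partner kept more than 5.74%. Its IFNγ libraries lay above its mock libraries at 91 h, and those of Bub1b overlapped. Its log2 ratio at 91 h over 23.5 h was -0.81 (SE 0.04) in the IFNγ arm and -1.02 (SE 0.05) in the mock arm, with adjusted p of 7.54e-10 in the IFNγ arm and 5.02e-09 in the mock arm.

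All 4 genes of the centromere and the passenger complex fell. Cenpf, a kinetochore protein made in G2, had 65.1 and 60.2 in the IFNγ libraries and 64.5 and 92.7 in the mock libraries, against 3291 and 3322 at T0. Birc5, which encodes survivin, a subunit of the passenger complex, had 37.5 and 35.6 in the IFNγ libraries and 67.7 and 60.4 in the mock libraries, against 2817 and 2864 at T0. At 91 h the arms overlapped for Cenpf and were apart for Birc5, lower after IFNγ. Cenpa, the histone H3 variant of centromeres, and Cenpe, a kinetochore motor, ended at 2.09% and 3.77% of T0 in the IFNγ arm and at 2.74% and 4.16% in the mock arm. Among the kinesins, the motor proteins of the spindle, Kif11, which pushes spindle poles apart, had 84.9 and 97.1 in the IFNγ libraries and 122 and 88.5 in the mock libraries, against 4277 and 4523 at T0, and the arms overlapped. Kif20a and Kif23, motors of the central spindle, Kif2c, which takes microtubules apart at centromeres, and Kif4, a motor of chromosome arms and midzone, ended between 1.74% and 3.03% in the IFNγ arm and between 2.35% and 3.22% in the mock arm. Of the spindle and midzone proteins, Tpx2, an activator of Aurora A, ended highest at 4.94% in the IFNγ arm and 5.95% in the mock arm, above Nusap1 and Hmmr, which bind spindle microtubules, and Prc1, which bundles midzone microtubules, at 2.01% to 2.90% in the IFNγ arm and 2.31% to 3.56% in the mock arm.

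The 2 genes of cytokinesis, Anln, which encodes the cortical scaffold anillin, and Ect2, the activator of RhoA at the cell equator, ended at 4.03% (Anln) and 4.16% (Ect2) of T0 in the IFNγ arm and at 5.05% and 5.59% in the mock arm. Anln had 236 and 253 in the IFNγ libraries and 293 and 320.3 in the mock libraries at 91 h, against 6074 and 6057 at T0. Ect2 had 189 and 184 in the IFNγ libraries and 279.7 and 222 in the mock libraries, against 4500.3 and 4475 at T0. For both genes the IFNγ libraries at 91 h lay below both mock libraries.

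Chromosome structure genes ended far apart. Mki67, the gene of the proliferation marker Ki-67 that coats mitotic chromosomes, had 181 and 186 in the IFNγ libraries and 268 and 323 in the mock libraries, against 12842 and 13856 at T0. Top2a, the topoisomerase that untangles sister chromatids, had 503 and 639 in the IFNγ libraries and 587 and 562 in the mock libraries, against 15136 and 15681 at T0. Smc4, a core subunit shared by both condensin complexes, had 1373 and 1351 in the IFNγ libraries and 1329.7 and 1308 in the mock libraries, against 5172 and 5346 at T0. Smc4 kept 25.9% of T0 in the IFNγ arm and 25.1% in the mock arm, while Mki67 kept 1.37% in the IFNγ arm and 2.21% in the mock arm. At 91 h the IFNγ libraries lay below the mock libraries for Mki67, overlapped them for Top2a and lay above them for Smc4. The condensin I subunits stood between them, with Ncapd2 at 8.31% in the IFNγ arm and 8.14% in the mock arm and Ncapg at 3.86% in the IFNγ arm and 3.68% in the mock arm.

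The early part of the course differed between the genes. In the mock arm at 23.5 h, 6 of 35 genes were lower than at T0 (Cdc20, Kif20a, Ube2c, Nek2, Plk1 and Aurka), or 17.1%, against 6.35% of all genes, and none was higher, against 8.33% of all genes. The log2 ratios of these 6 lay between -0.26 for Cdc20 and -0.16 for Aurka. The other genes lay between -0.17 and 0.13 and did not pass the test. Without mock library 1 some of the 35 were called higher. With no variance trend in the fit, or with all 14 libraries in 1 fit, no gene of the 35 was called lower. Of all genes 21 were lower with no variance trend and 20 in the single fit. In the IFNγ arm at 23.5 h, 32 of 35 genes were lower than at T0, against 18.0% of all genes, with Smc4, Anln and Top2a not past the test. The largest falls were those of Ube2c (-0.48), Cdc20 (-0.44) and Aurka (-0.41). In the single fit over 14 libraries 4 of the 35 were lower, where 453 of all genes were. With no variance trend 18 of the 35 were, where 1041 of all genes were. By the adjusted p of the authors' deposited tables, at under 0.05, 29 of 35 genes were below T0 at 23.5 h in the IFNγ arm and 3 in the mock arm, where 8.31% of the genes listed for the IFNγ arm and 1.93% of those for the mock arm were. The arms share T0 here, and their direct comparison is given further on.

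Between 23.5 and 48 h the genes of the mock arm moved by unequal amounts. There 27 of 35 genes were lower at 48 h, against 28.9% of all genes, and the median log2 ratio was -0.38. Bub1b, Bub1, Ncapd2, Aurkb, Plk1, Cdk1 and Ccnb1 fell by 0.72 to 0.87 on the log2 scale. Cenpe, Ube2c, Hmmr, Ncapg, Prc1, Nusap1, Smc4 and Cdc25c lay between -0.14 and 0.09 and did not pass the test. At 48 h the mock libraries held 1728 and 2074 for Bub1b, against 3354 and 3593 at 23.5 h, and 2371 and 2112 for Plk1, against 3653 and 3803 at 23.5 h. In the same libraries Smc4 stood at 5417 and 6131, against 5256 and 5600.0 at 23.5 h. Bub1b and Plk1 lay below both earlier libraries and Smc4 overlapped them.

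In the IFNγ arm 2 of 35 genes, Plk1 and Ccnb1, were lower at 48 h than at 23.5 h (adjusted p of 0.0465 and 0.0492 in limma), against 1.12% of all genes, though 34 of 35 log2 ratios were below 0 and their median was -0.48. Here 31 genes had both later libraries below both earlier ones, against 34.9% of all genes. Between the 2 IFNγ libraries of 48 h the spread was wide, and the count depended on which library was left out. With 1 fit over 14 libraries 25 of the 35 were lower, but 2933 of all genes were lower and 2630 higher in that fit. In the fit of the 2 groups alone, 59.8% of all genes called were higher at 48 h, and 75.4% with libraries scaled to equal totals. The 2 libraries did not differ in 1 direction over the 35 genes. Cenpe stood at 2467 and 1640.5 in libraries 1 and 2 and Mki67 at 9174 and 6466, both lower in library 2. Bub1 stood at 1729.8 and 2579 and Bub1b at 1338 and 1984, both higher in library 2. Of the 35 genes 16 were higher in library 1, and the log2 ratio of library 1 over 2 ran from -0.58 for Bub1 to 0.59 for Cenpe.

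**Figure D3:**
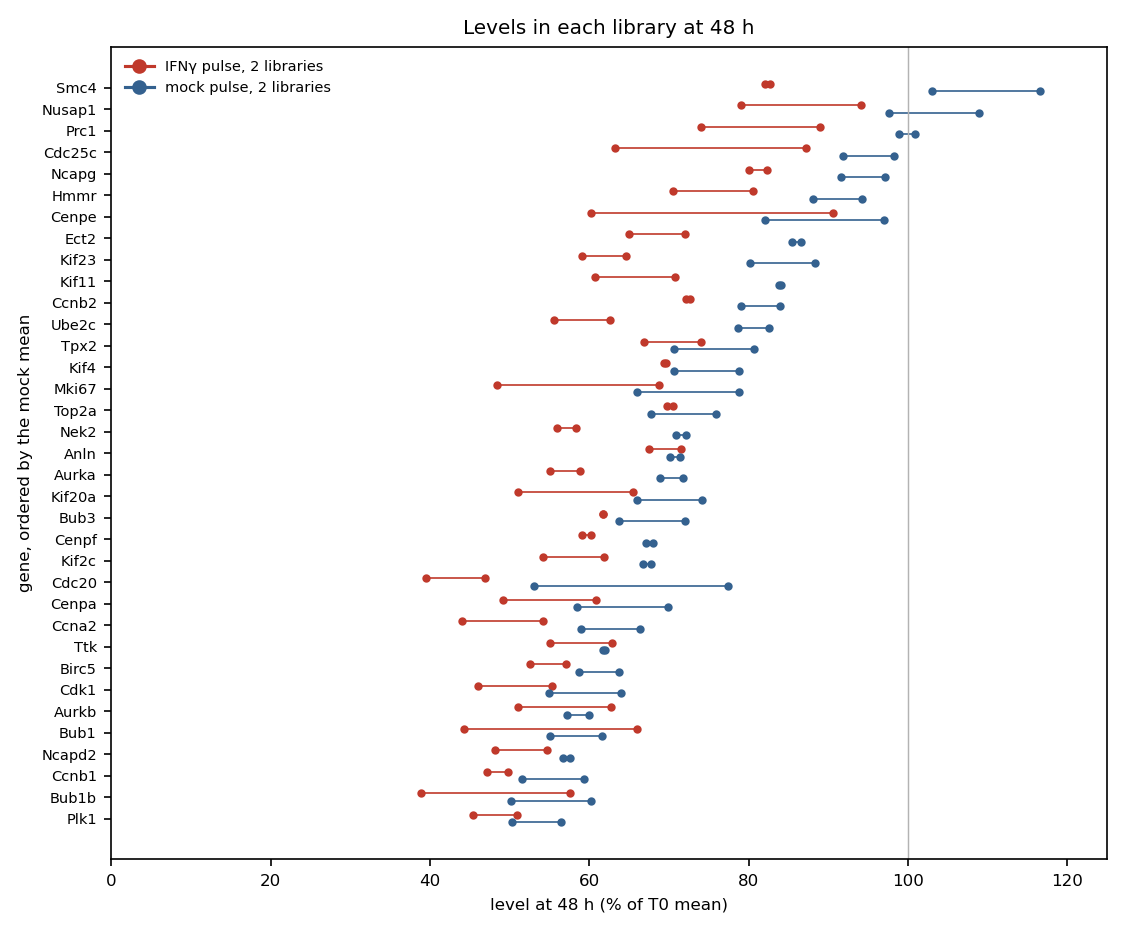
Level at 48 h as a percentage of the T0 mean (x axis) for each of the 35 genes (rows, ordered by the mock mean); joined points are the 2 libraries of the IFNγ group (upper of each pair) and of the mock group. Smc4, Nusap1 and Prc1 lie near 100% in the mock group while Plk1 and Bub1b lie near 50%, and the IFNγ libraries lie mostly to the left of the mock libraries.

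The later fall was the main one. Between 48 and 91 h, 34 of 35 genes in the IFNγ arm (all but Bub3) and 35 of 35 in the mock arm were lower, against 9.06% of all genes in the IFNγ arm and 29.9% in the mock arm. The median log2 ratio was -4.69 in the IFNγ arm and -4.67 in the mock arm. By the authors' deposited tables all 35 genes were below T0 at 91 h in each arm, at their adjusted p under 0.05, where 30.6% of the genes listed for the IFNγ arm and 30.2% of those for the mock arm were.

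The second question is whether an IFNγ pulse left the programme at another level than a mock pulse. At 23.5 h 21 of 35 genes were lower after IFNγ than after mock, against 6.06% of all genes. None was higher, against 8.55% of all genes. All 35 log2 ratios were below 0, with a median of -0.19, or 1.14 times lower, and 32 genes had both IFNγ libraries below both mock libraries, against 27.4% of all genes. Every role had at least 1 of its genes among the 21, including both genes of the anaphase promoting complex and all 3 of the spindle checkpoint. Adjusted p-values of the 21 ranged from 0.000388 for Kif11 to 0.0357 for Bub1.

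The 5 lowest ratios at 23.5 h were those of Kif11, Kif23, Mki67, Ect2 and Cenpf. Kif11 had 3711 and 3566 in the IFNγ libraries and 4507 and 4865 in the mock libraries, a log2 ratio of -0.36 (SE 0.05). Kif23, a motor of the central spindle, had 1718 and 1672 after IFNγ against 2107 and 2245 after mock, a ratio of -0.36 (SE 0.05). Mki67 had 11928 and 10969 after IFNγ against 12898 and 16624 after mock, a ratio of -0.36 (SE 0.09). For these 3 genes the groups did not overlap, and the 2 mock libraries of Mki67 were themselves further apart than its nearest pair across groups. Ect2 had 3596 and 3612 in the IFNγ libraries against 4405 and 4668 in the mock libraries, a ratio of -0.33 (SE 0.04). Cenpf had 2731 and 2831 after IFNγ against 3101 and 3784 after mock, a ratio of -0.30 (SE 0.07), again without overlap.

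Other genes of the 21 were nearer the middle of the set. Cdk1 had 4746 and 4635 in the IFNγ libraries and 5495 and 5473 in the mock libraries, a log2 ratio of -0.23 (SE 0.04). Ccnb1 had 2261 and 2179 after IFNγ against 2538 and 2790.2 after mock, and Aurka 1999 and 2052 after IFNγ against 2355 and 2455 after mock. Bub1b had 2866 and 2947 after IFNγ against 3354 and 3593 after mock. In each of these the IFNγ libraries were the lower ones, with ratios of -0.23 to -0.26. The 3 highest ratios were those of Cdc25c at -0.01 (SE 0.06), Ncapg at -0.07 (SE 0.05) and Top2a at -0.07 (SE 0.05), none past the test. Top2a had 15546 and 15223 in the IFNγ libraries and 15531 and 16830.3 in the mock libraries, Cdc25c 746 and 707 after IFNγ against 727 and 735 after mock, and Ncapg 2433 and 2516 after IFNγ against 2548 and 2633 after mock. The first 2 of these genes overlapped between the groups.

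Plk1, Birc5, Anln and Smc4 did not pass the test at 23.5 h, although their IFNγ libraries were the lower ones. Plk1 had 3574 and 3513 in the IFNγ libraries and 3653 and 3803 in the mock libraries. Birc5 had 2489 and 2377 after IFNγ against 2664 and 2706 after mock. Anln had 5948 and 5836 after IFNγ against 6255 and 6397 after mock, and Smc4 5051 and 4858 after IFNγ against 5256 and 5600.0 after mock. Their log2 ratios lay between -0.07 and -0.14. The 21 calls became 0 with no variance trend, where 85 of all genes were lower. They became 0 in 1 fit over the 14 libraries, where 77 of all genes were lower. There were fewer calls without either IFNγ library and more without mock library 1. The summed level of the 7 melanocytic markers was 549416 after IFNγ and 425040 after mock at 23.5 h. Its part in the result was not tested. With libraries scaled to equal totals 27 genes of the set were lower, but all genes moved the same way. Over all genes 1004 were called lower with equal totals, against 755 with the authors' scale. The median log2 ratio of all genes was -0.0205 with equal totals and 0.0016 with the authors' scale. That scaling left 47.3% of all called genes higher after IFNγ, against 58.5% with the authors' scale.

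At 48 h no gene of the 35 passed the test between IFNγ and mock, and 0% of all genes did. At an unadjusted p under 0.05 there were 8 of the 35 and 847 of 12652 genes, in limma. The single fit over 14 libraries called 4 of the 35 lower, and of all genes 264 lower and 416 higher. All 35 log2 ratios were again below 0, with a median of -0.23, and 23 genes had both IFNγ libraries below both mock libraries, against 19.3% of all genes. The number called changed when either IFNγ library was left out. At 48 h the summed melanocytic level was 495181 after IFNγ and 372753 after mock, the endothelial gene Vwf stood at 933 after IFNγ and 432 after mock, and their part in the result was not tested. The lowest ratios belonged to Cdc20, Ube2c, Kif23, Smc4 and Ccna2.

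Cdc20 had 1203 and 1429 in the IFNγ libraries and 1615 and 2358 in the mock libraries at 48 h, a log2 ratio of -0.57 (SE 0.21). Ube2c had 2144 and 1904 after IFNγ against 2691 and 2827 after mock, a ratio of -0.45 (SE 0.12). Kif23 had 1269 and 1389 after IFNγ against 1723 and 1898 after mock, a ratio of -0.44 (SE 0.12). All 3 genes kept the IFNγ libraries below the mock libraries. Smc4 had 4318 and 4349.5 after IFNγ against 5417 and 6131 after mock, a ratio of -0.41 (SE 0.12), and Ccna2 2967 and 3654 after IFNγ against 3979.6 and 4479 after mock, a ratio of -0.36 (SE 0.15). The highest ratios were those of Anln at -0.03 (SE 0.11), Top2a at -0.03 (SE 0.13) and Aurkb at -0.05 (SE 0.14). Anln had 4095 and 4339.6 in the IFNγ libraries and 4332 and 4255 in the mock libraries, Top2a 10872 and 10747 after IFNγ against 11687 and 10434 after mock, and Aurkb 1892 and 2328 after IFNγ against 2224 and 2121 after mock, and all 3 overlapped.

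Kif11, Aurka, Birc5, Cenpf and Ccnb1 kept their IFNγ libraries below the mock libraries at 48 h. Kif11 had 3116 and 2671 in the IFNγ libraries and 3689.8 and 3698 in the mock libraries, and Aurka 1586 and 1484 after IFNγ against 1936 and 1855 after mock. Birc5 had 1622 and 1494 after IFNγ against 1812 and 1668 after mock, and Cenpf 1991 and 1955 after IFNγ against 2250.1 and 2218 after mock. Ccnb1 had 1375 and 1451 after IFNγ against 1500.4 and 1727 after mock. Mki67, Cdk1, Plk1 and Bub1b overlapped between the groups. Mki67 had 9174 and 6466 in the IFNγ libraries and 10525 and 8815 in the mock libraries, and Cdk1 2573 and 3091 after IFNγ against 3073 and 3578 after mock. Plk1 had 1908 and 2138 after IFNγ against 2371 and 2112 after mock, and Bub1b 1338 and 1984 after IFNγ against 1728 and 2074 after mock.

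**Figure D4:**
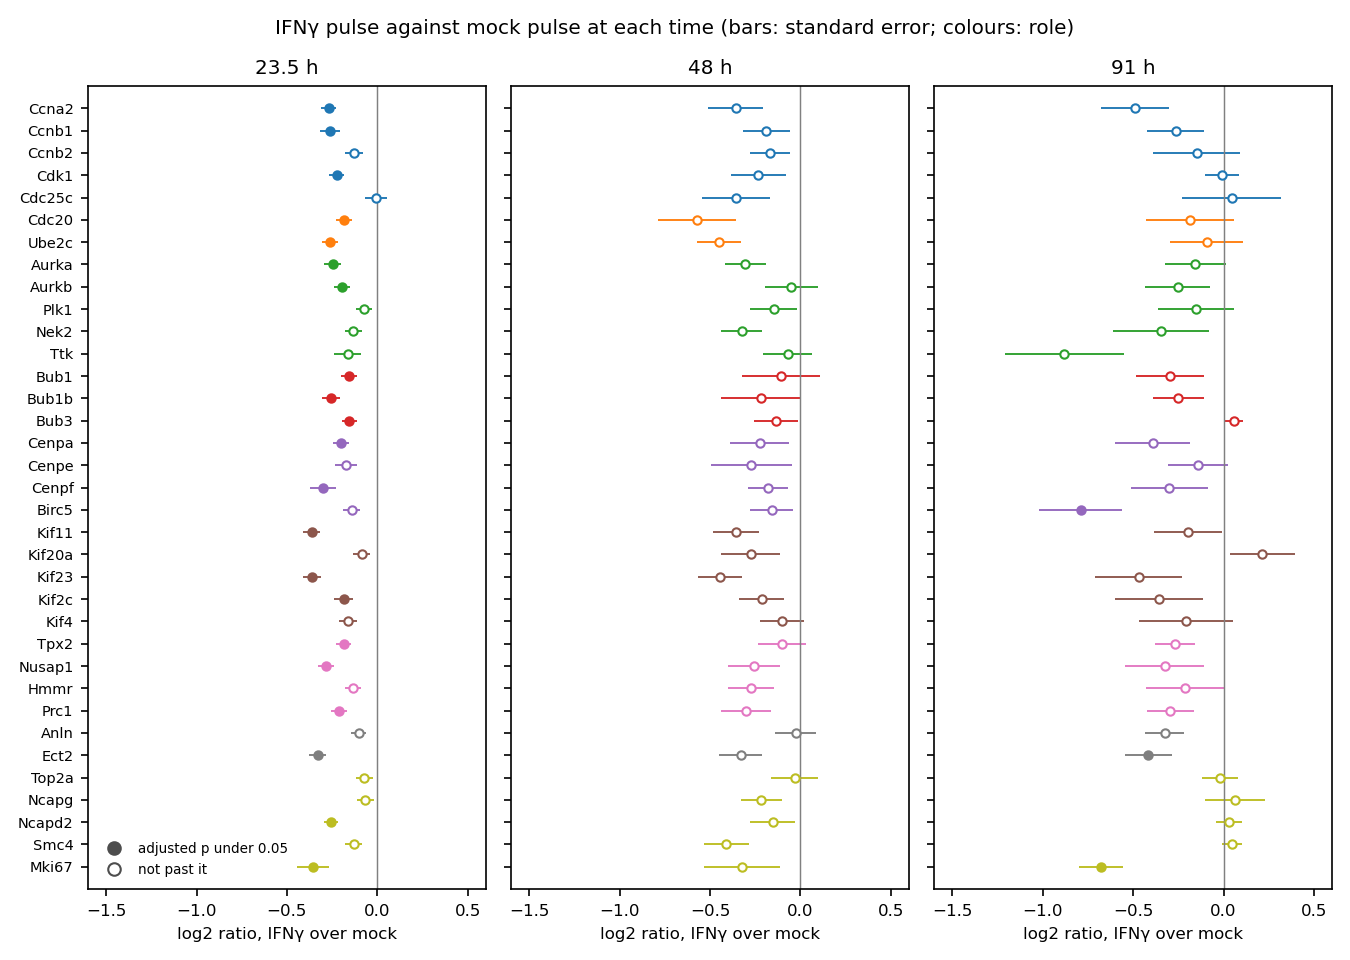
Log2 ratio of IFNγ over mock (x axis) for each of the 35 genes (rows, grouped by role and coloured by it) at 23.5, 48 and 91 h; bars are standard errors from limma and filled points have an adjusted p under 0.05. All 35 points lie left of 0 at 23.5 and 48 h, with 21 and 0 filled, while at 91 h 29 lie left of 0 and 3 are filled.

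At 91 h, when 33 of the genes were under 10% of T0 in each arm, 3 of 35 genes were lower after IFNγ than after mock, or 8.57%, close to the 7.53% of all genes that were. They were Mki67, Birc5 and Ect2, and none was higher, against 8.75% of all genes. Of the 35 log2 ratios 29 were below 0, with a median of -0.25, and 16 genes had both IFNγ libraries below both mock libraries, against 27.8% of all genes. Mki67 had 181 and 186 in the IFNγ libraries and 268 and 323 in the mock libraries, a log2 ratio of -0.68 (SE 0.12) with an adjusted p of 0.0012. Birc5, with 34 and 29 reads in the IFNγ libraries and 62 and 43 in the mock libraries, had a ratio of -0.79 (SE 0.23) with an adjusted p of 0.0264. Ect2 had a ratio of -0.42 (SE 0.13) with an adjusted p of 0.0397. In all 3 the libraries of the groups were apart, and their means were 1.29% to 5.59% of those at T0. Without IFNγ library 1, or without library 2, Mki67 alone passed the test, and with no variance trend none of the 35 did. Without mock library 1 the ratio of Ect2 was -0.25 (adjusted p of 0.339) and that of Birc5 -0.71 (adjusted p of 0.100). Ect2 did not pass in 6 of 10 alternative settings, Birc5 in 4 and Mki67 in 2. The myeloid gene Cd68 stood at 97.1 after IFNγ and 35.04 after mock at 91 h, and its part in the result was not tested.

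Ttk had the lowest ratio at 91 h, -0.88 (SE 0.33), and did not pass the test, with an adjusted p of 0.0841. It rested on 14 and 13 reads in the IFNγ libraries and 24 reads in each mock library, the fewest of the 35 genes, and passed in the single fit over 14 libraries, with an adjusted p of 0.00994. At 91 h Ttk was at 15.7 after IFNγ and 29.97 after mock, so it passed the filter on low levels there through the mock group alone. After Ttk, Birc5 and Mki67, the next lowest ratios were those of Ccna2 at -0.49 (SE 0.19) and Kif23 at -0.47 (SE 0.24), and neither passed. Kif23 had 34.2 and 40.6 in the IFNγ libraries and 49.2 and 54.8 in the mock libraries. The 3 highest ratios were those of Kif20a at 0.21 (SE 0.18), Ncapg at 0.06 (SE 0.17) and Bub3 at 0.06 (SE 0.05), none past the test. Kif20a had 108 and 102 in the IFNγ libraries and 78.7 and 104 in the mock libraries, and Ncapg 93.7 and 112 after IFNγ against 96.1 and 99.7 after mock, both with overlap. In Bub3 and Smc4, the genes of the 35 that fell least from T0, both IFNγ libraries lay above both mock libraries. Cdk1 had a ratio of -0.01 (SE 0.10) and Top2a one of -0.02 (SE 0.10).

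**Figure D5:**
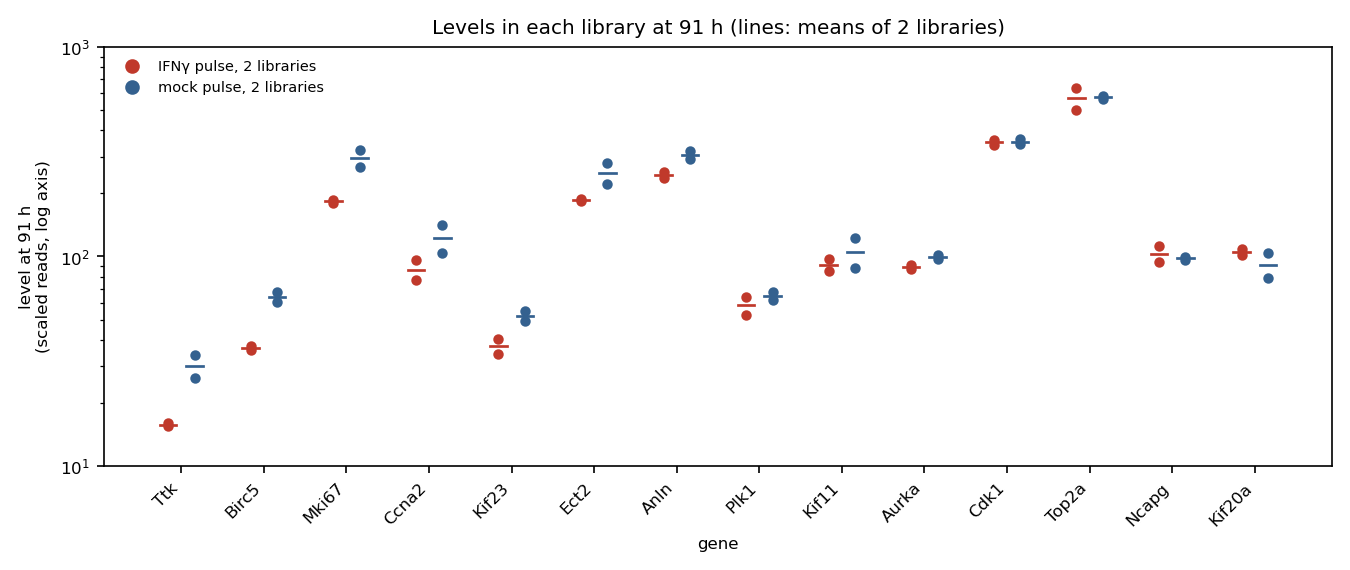
Level at 91 h (y axis, scaled reads, log scale) in each library of the IFNγ group (left of each pair) and the mock group for 14 of the 35 genes (x axis); points are libraries and lines are means. Mki67, Birc5 and Ect2, which passed the test, are lower in both IFNγ libraries. So are Ttk, Ccna2, Kif23, Anln and Aurka, which did not pass, while Cdk1 and Top2a overlap.

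Whether the IFNγ effect itself changed between 23.5 and 91 h was tested in a model of both effects. Of the 35 genes 2 had a lower log2 ratio at 91 h, against 5.35% of all genes, and 2 a higher one, against 3.94% of all genes, so both counts are near the share of all genes. Lower were Birc5, by a difference of -0.65 (SE 0.12), and Ttk, by -0.72 (SE 0.21). Higher were Ncapd2, by 0.29 (SE 0.07), and Bub3, by 0.21 (SE 0.06). Adjusted p-values in limma were 0.00446 for Birc5, 0.047 for Ttk, 0.0286 for Ncapd2 and 0.0403 for Bub3. For Birc5 this was an IFNγ over mock log2 ratio of -0.79 at 91 h and -0.14 at 23.5 h. Ncapd2 had 808 and 889.7 after IFNγ against 861 and 804 after mock at 91 h. At 23.5 h it had 8277 and 8312 after IFNγ against 9873 and 9957 after mock, so the groups overlapped at 91 h and were apart at 23.5 h. Of the 4 differences, that of Birc5 was past the test in 13 of 14 alternative settings, the exception being without IFNγ library 1 of 23.5 h (adjusted p of 0.0511). The difference was lost in 10 of 14 for Ttk, 9 for Bub3 and 8 for Ncapd2.

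Other genes of the same phase were read from a list of names. Of 55 other G2/M genes in the tables, 35 were lower and 1 was higher after IFNγ than after mock at 23.5 h, with a median log2 ratio of -0.21, where 6.06% of all genes were lower and 8.55% higher. The 3 largest were Depdc1a at -0.42 (SE 0.11), the phosphatase gene Cdc25b at -0.37 (SE 0.05) and Arhgap11a at -0.35 (SE 0.06). The gene that was higher was Pttg1, which encodes securin, at 0.26 (SE 0.08). At 48 h none of the 55 passed. At 91 h 11 were lower and 2 higher of 53 tested, where 7.53% of all genes were lower and 8.75% higher. The largest changes past the test were those of Pkmyt1 at -0.87 (SE 0.18), Espl1 at -0.86 (SE 0.25) and Casc5 at -0.85 (SE 0.26). Between 23.5 and 91 h 54 of the 55 were lower in each arm, where 36.7% of all genes in the IFNγ arm and 35.7% in the mock arm were, and Pttg1 was higher in each, at 163.7% of T0 in the IFNγ arm and 137.5% in the mock arm.

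The 37 S phase genes, which encode replication proteins, are set beside the 35 because S phase comes before G2. They stood at a median of 46.4% of T0 in the IFNγ arm and 47.5% in the mock arm at 48 h, where the 35 mitosis and G2/M genes stood at 59.1% in the IFNγ arm and 70.8% in the mock arm. At 91 h they stood at 10.7% in the IFNγ arm and 10.2% in the mock arm, where the 35 genes stood at 2.12% and 2.74% in those arms. In the mock arm all 37 were lower at 48 h than at 23.5 h, where 28.9% of all genes were, with a median log2 ratio of -1.12. At 23.5 h 6 of 37 were lower after IFNγ than after mock, where 6.06% of all genes were, with a median of -0.06, led by Orc6 at -0.21 (SE 0.06), Dut at -0.20 (SE 0.05) and Rrm1 at -0.16 (SE 0.04). At 48 h none passed, and at 91 h 10 were lower and 1 higher, where 7.53% of all genes were lower and 8.75% higher. The largest past the test were Tk1 at -0.89 (SE 0.19), Mcm5 at -0.86 (SE 0.16) and Uhrf1 at -0.67 (SE 0.12). The difference between the 2 lists was not tested.

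Among 23 regulators of the programme, 4 were lower and 1 was higher after IFNγ at 23.5 h, none passed at 48 h, and 2 were lower and 3 higher at 91 h. Of all genes 6.06% were lower and 8.55% higher at 23.5 h, and 7.53% were lower and 8.75% higher at 91 h, so the counts at 91 h are near those shares. At 23.5 h the largest past the test were Lin37, a DREAM subunit, at 0.39 (SE 0.11) and Ccne2, a cyclin E, at -0.26 (SE 0.06). Next came Cdkn2c, an inhibitor of Cdk4 and Cdk6, at -0.22 (SE 0.05). At 91 h the largest past the test were Cdkn2c at 0.48 (SE 0.09) and Nfyb, an NF-Y subunit, at -0.30 (SE 0.09). Cdkn1b, which encodes the Cdk inhibitor p27, followed at 0.30 (SE 0.05). Between 23.5 and 91 h, 15 of the 23 were lower and 5 higher in the IFNγ arm, where 36.7% of all genes were lower and 35.2% higher. In the mock arm 15 were lower and 6 higher, where 35.7% of all genes were lower and 34.6% higher. Foxm1, an activator of G2/M genes, was lower by a log2 ratio of -4.03 in the IFNγ arm and -3.91 in the mock arm, and Mybl2, which encodes B-Myb, by -5.42 in the IFNγ arm and -4.88 in the mock arm. Over the same interval Cdkn1a, which encodes the Cdk inhibitor p21, was higher by 1.81 in the IFNγ arm and 1.83 in the mock arm. Cdkn1b was higher by 1.31 in the IFNγ arm and 1.02 in the mock arm. The Cdk inhibitor gene Cdkn2c was lower over that interval, by a log2 ratio of -1.598 in the IFNγ arm and -2.30 in the mock arm. These 5 were picked from the list after their values were seen.

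Some of the 35 genes share sequence or ground with others in the annotation (GENCODE M21, GRCm38). Ccna2, Cdc20, Ube2c, Kif20a, Kif4, Nusap1, Prc1, Ncapg, Plk1, Nek2 and Cdc25c have exons that overlap a gene on the opposite strand, among them Exosc9 for Ccna2 and Elovl1 for Cdc20. Top2a and Ncapd2 hold small genes on their own strand. Named pseudogenes exist for Ccnb1, Ccnb2 and Kif4. Neither the strand setting of the counting nor its treatment of reads that match several places is known from the sources, so the levels of these genes are less certain.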

How the data were processed

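RNA of 7 groups of B16 cells was sequenced, and 6 tables were deposited, each setting T0 against 1 other group. The submitters' processing notes name STAR 2.5.0a, Picard 1.124, HTSeq 0.5.3, DESeq and the builds mm10 and GRCm38, and the order of steps is not given. The deposited signal is the authors' mean per gene of a group, made of reads that had been scaled by library. The authors' log2 ratio runs T0 over the other group, and their deposited p-value and adjusted p come from DESeq, per the submitters' processing notes. Entries that name no gene held 57.1% to 70.3% of the listed totals and were left out.

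Each mean was solved for the whole reads of 2 libraries, with a rounding tolerance of 1.2 times the printed precision. For means of 3000 or more, only pairs whose libraries lay within a log2 ratio of 2 were accepted, so a wider spread could not be found there. A single pair of reads was found for 99.6% of 157036 values, and the solution was checked on simulated data. Genes without a single pair were left out. Reads divided by size factors were joined on 1 scale through the T0 libraries that all tables share, so the comparison of IFNγ with mock runs across tables that were normalised separately. Precision follows the reads: at 91 h a member gene had as few as 13 reads in a library, against at least 754 at T0.

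Log2(level + 1) was fitted with limma 3.58.1 (R 4.3.3, variance trend) on the libraries of the groups compared. Genes below a level of 20 in every group compared were dropped first. All 35 genes passed in every comparison, and p-values were adjusted over all genes tested by the Benjamini-Hochberg method, with a threshold of 0.05. Fold changes of low genes are understated on this scale. The fit was checked on data simulated from the mock levels of 23.5 h. That check does not cover the wide spread of the IFNγ group at 48 h or the low levels at 91 h. Percentages of T0 are ratios of group means without the pseudocount. Python 3.11.15, numpy 2.4.6, pandas 2.3.3 and matplotlib 3.10.9 were used.

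The 35 genes and the other lists were chosen by name with earlier results of these data known. Every gene of the 35 was accounted for. Values in every library are given for 12 genes picked for their roles, and for the 5 lowest and 3 highest log2 ratios in each IFNγ comparison. Of the other lists, the 3 largest changes past the test are named. Alternatives were a pseudocount of 10, no filter on level, libraries scaled to equal totals, median-of-ratios size factors, no variance trend, 1 fit over all 14 libraries, and leaving out each library. Genes whose libraries in 1 group both lay below those of the other were counted as well.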

Additional observations from a re-analysis of the deposited data

Results flagged for a closer look

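Of the 35 genes, 2 had a lower and 2 a higher log2 ratio of IFNγ over mock at 91 h than at 23.5 h in a test of the difference itself, fitted with limma over all genes, where 5.35% of all genes were lower and 3.94% higher, so these counts are near the share of all genes. For Ttk the difference of the log2 ratios was -0.72 (SE 0.21, adjusted p = 0.047), from a ratio of -0.88 at 91 h and -0.16 at 23.5 h. For Birc5 it was -0.65 (SE 0.12, adjusted p = 0.00446), from -0.79 at 91 h and -0.14 at 23.5 h. For Ncapd2 it was 0.29 (SE 0.07, adjusted p = 0.0286), from 0.03 at 91 h and -0.26 at 23.5 h. For Bub3 it was 0.21 (SE 0.06, adjusted p = 0.0403), from 0.06 at 91 h and -0.16 at 23.5 h. At 91 h Ttk stood at 15.7 after IFNγ and 29.97 after mock, so only its mock group was above the level of 20 there. In this test it also passed that filter through 23.5 h, at 745 after IFNγ and 835 after mock. With a pseudocount of 10 its difference was -0.47 (adjusted p = 0.132). The call was lost in 10 of 14 settings for Ttk, 9 for Bub3, 8 for Ncapd2 and 1 for Birc5. Each ratio rests on 2 libraries a group, and at 91 h Ttk had 13 to 24 reads and Birc5 29 to 62 reads a library.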

How the results depend on the processing

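Only the falls to 91 h held in every setting run: 35 genes were lower at 91 h than at 23.5 h in both arms whichever library was left out, and 34 to 35 (IFNγ) and 35 (mock) were lower at 91 h than at 48 h. No named gene reversed its direction. Over all results for single genes, 1510 kept their side of the threshold, 101 lost it, 48 gained it and 5 moved.

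Counts of the 35 called lower moved with the estimate of the spread. With no variance trend they were 0 for IFNγ against mock at 23.5 h and 0 at 91 h, 18 for IFNγ at 23.5 h against T0, 0 for IFNγ at 48 h against 23.5 h and 0 for mock at 23.5 h against T0. With 1 fit over all 14 libraries they were 0 at 23.5 h and 4 at 48 h for IFNγ against mock, 4 for IFNγ at 23.5 h against T0, 25 for IFNγ at 48 h against 23.5 h and 0 for mock at 23.5 h against T0. Equal totals and median-of-ratios size factors each gave 1 for IFNγ at 48 h against 23.5 h. For the difference of IFNγ effects, 1 gene was lower with a pseudocount of 10, 1 with no variance trend and 1 in the single fit, and 0 were higher in the last 2. Over all genes the numbers lower with no variance trend were, in the same order, 85, 36, 1041, 0 and 21. In the single fit they were, in the order above, 77, 264, 453, 2933 and 20. Equal totals gave 69 and median-of-ratios size factors 73 for IFNγ at 48 h against 23.5 h. The cause was not tested.

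Leaving out 1 library at a time gave 10 to 27 lower at 23.5 h, 0 to 14 at 48 h and 1 to 3 at 91 h for IFNγ against mock. It gave 29 to 32 lower for IFNγ at 23.5 h against T0, and 0 to 34 lower with 0 to 1 higher for IFNγ at 48 h against 23.5 h. In the mock arm it gave 1 to 7 lower with 0 to 4 higher at 23.5 h against T0, and 21 to 27 lower with 0 to 1 higher at 48 h against 23.5 h. For the difference of IFNγ effects it gave 0 to 2 higher and 0 to 4 lower. A group left with 1 library was taken to vary like the other. The share of all genes called in these fits is not given here, so these counts do not set the 35 genes apart. The adjusted p of Mki67 at 91 h was under 0.05 except with no variance trend (0.0706) and in the single fit (0.0723). No paired analysis was possible because each group is 1 labelled sample with the same number, and library numbers pair nothing between groups. Of the 35 genes Ttk had the fewest reads at 91 h.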
